A study of Mus musculus with 6 samples.

Results

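Among the nuclei of lineage-traced mouse olfactory epithelium, 155 of 3679 carried open chromatin over genes of neuronal precursors and immature olfactory neurons. They were chosen by a rule. Barcodes with 5000 fragments or more counted as cells. A cell's rate over a gene set was the share of its cut sites, the ends of its fragments, that lay in the gene bodies and the 2 kb upstream. The fold was that rate divided by the pooled rate of all cells of the 6 libraries. The cells described here, called members, had a fold of at least 3 over 8 immature-neuron genes (Nhlh1, Gap43, Neurod1, Neurog1, Stmn2, Calb2, Rd3 and Insm1), cut sites in at least 4 of these genes, and a fold at or above that over 9 mature-neuron genes (Omp, Gng13, Rtp1, Rtp2, Cnga2, Stoml3, S100a5, Jakmip1 and Stmn4). Mature-like cells (172) had a fold of at least 3 over the mature-neuron genes, cut sites in at least 4 of them and the higher fold there. The other 3352 cells are called remaining cells.

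All mice had the genotype Krt5CreER; Rosa26 LSL-YFP/LSL-YFP, in which the Krt5 promoter drives an inducible Cre that switches on YFP in basal cells and so also marks their later progeny. The groups were uninjured controls and mice 24 h after methimazole, a drug used to lesion the olfactory epithelium, with 3 libraries each. Replicate 1 of both groups was 8 weeks old, replicate 2 was 6 weeks old and replicate 3 was 6 to 7 weeks old. YFP-positive, propidium iodide-negative cells of the dorsal epithelium were sorted and their nuclei profiled by single-cell ATAC-seq (10x Genomics), which cuts accessible DNA with a transposase. The submitters label every library as horizontal basal cell, so the members are cells whose accessible genes go against that label. Labelled progeny and unlabelled cells in the sort cannot be told apart here.

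The libraries held between 8100227 and 23937953 fragments, of which 88.3% to 92.6% lay in cells, and between 359 and 1130 cells. Across libraries, 14 barcodes occurred as a cell more than once, and 1 member was among them. Injured replicate 3 stands apart by holding 60 of the 155 members and 94 of the 172 mature-like cells. Mature-like cells were 15.0% of its cells, against 1.15% to 5.07% in the other libraries, and it gave 51.8% of their cut sites, so pooled levels of that class lean on it.

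New olfactory neurons arise throughout life from basal stem cells. Globose basal cells, the dividing progenitors, pass through a precursor stage marked by the bHLH factors Neurog1 and Neurod1. They then become immature neurons that grow an axon and express Gap43. The mature neuron carries Omp and the odour transduction machinery. Accessibility over a gene is not its RNA level, and both are known to change along this path.

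The sequences below are stretches of DNA that were more or less open in members than in remaining cells. The first 4 are stretches of 300 bases around open regions (GRCm38, plus strand), the 3 regions with the largest excess in members and the region with the largest deficit among the regions that the naming rule allowed. The capitals mark matches to TAATTA, the core bound by LIM homeodomain factors such as Lhx2, or to TGANTCA, the AP-1 site, on either strand. Higher region 3 holds none of the motifs searched.

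Higher region 1, between genes, chr3:151112797-151113096: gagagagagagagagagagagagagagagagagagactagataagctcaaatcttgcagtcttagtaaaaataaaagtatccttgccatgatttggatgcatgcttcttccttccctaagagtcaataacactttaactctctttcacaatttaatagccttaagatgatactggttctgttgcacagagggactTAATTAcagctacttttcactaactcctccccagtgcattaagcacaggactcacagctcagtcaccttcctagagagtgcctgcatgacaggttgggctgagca
Higher region 2, intron of Fam19a1, chr6:96376890-96377189: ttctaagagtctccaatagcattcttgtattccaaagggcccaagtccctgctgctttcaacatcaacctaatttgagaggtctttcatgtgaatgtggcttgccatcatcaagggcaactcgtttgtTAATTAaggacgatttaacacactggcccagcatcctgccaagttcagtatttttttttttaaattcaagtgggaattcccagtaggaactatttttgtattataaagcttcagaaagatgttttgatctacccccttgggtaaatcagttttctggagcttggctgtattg
Higher region 3, intron of Fam19a4, chr6:96840001-96840300: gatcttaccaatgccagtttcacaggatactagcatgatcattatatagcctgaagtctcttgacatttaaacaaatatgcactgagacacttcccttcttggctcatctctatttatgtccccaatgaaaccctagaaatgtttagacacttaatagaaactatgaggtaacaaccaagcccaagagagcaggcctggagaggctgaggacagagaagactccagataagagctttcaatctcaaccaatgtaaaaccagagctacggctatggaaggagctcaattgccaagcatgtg
Lower region 1, intron of Nrg1, chr8:32219019-32219318: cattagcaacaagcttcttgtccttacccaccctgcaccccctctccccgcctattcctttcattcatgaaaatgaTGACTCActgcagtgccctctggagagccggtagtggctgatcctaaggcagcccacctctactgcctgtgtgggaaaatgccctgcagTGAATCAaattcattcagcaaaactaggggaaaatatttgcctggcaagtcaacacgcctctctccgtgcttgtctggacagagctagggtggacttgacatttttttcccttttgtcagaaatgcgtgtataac

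The next 3 sequences are promoters, from 250 bases before to 50 after the start, from RefSeq (GRCm38.p6), chosen after their values were seen. Nhlh1 is a gene of the rule, and its capitals mark CAGATG, an E-box of the kind bound by neurogenic bHLH factors. Gfy encodes a Golgi protein of olfactory neurons, and its capitals mark a match to the EBF site. Uncx encodes a homeodomain factor, and its capitals mark TAATTA. A match describes letters and does not show binding.

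Nhlh1, minus strand, chr1:172057547-172057846: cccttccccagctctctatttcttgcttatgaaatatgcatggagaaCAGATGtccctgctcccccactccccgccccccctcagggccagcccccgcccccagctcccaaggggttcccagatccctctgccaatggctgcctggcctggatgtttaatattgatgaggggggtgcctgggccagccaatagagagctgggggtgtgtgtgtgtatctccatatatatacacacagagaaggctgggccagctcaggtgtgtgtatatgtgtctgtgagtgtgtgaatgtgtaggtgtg
Gfy, minus strand, chr7:45179548-45179847: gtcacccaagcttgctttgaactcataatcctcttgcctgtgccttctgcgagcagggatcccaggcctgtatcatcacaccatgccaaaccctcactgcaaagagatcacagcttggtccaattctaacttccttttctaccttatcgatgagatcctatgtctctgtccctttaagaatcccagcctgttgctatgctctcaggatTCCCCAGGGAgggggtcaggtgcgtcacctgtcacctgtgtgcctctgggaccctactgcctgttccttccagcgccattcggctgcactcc
Uncx, plus strand, chr5:139543648-139543947: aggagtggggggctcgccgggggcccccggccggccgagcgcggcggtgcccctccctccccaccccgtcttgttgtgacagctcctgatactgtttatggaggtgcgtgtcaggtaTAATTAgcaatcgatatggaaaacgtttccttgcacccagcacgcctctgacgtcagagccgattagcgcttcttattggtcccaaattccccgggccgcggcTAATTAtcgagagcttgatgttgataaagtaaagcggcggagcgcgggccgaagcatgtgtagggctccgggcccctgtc

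Over these 300 bases the Nhlh1 promoter held 15.8 ppm (cut sites per 1000000 of the class, not otherwise scaled) in members, 3.63 in mature-like cells and 0.383 in remaining cells, pooled over libraries. The Gfy promoter held 7.57, 13.9 and 0.339 ppm in the same order. The Uncx promoter held 11.2, 11.0 and 0.665 ppm. Gfy was thus most open in mature-like cells, and Uncx about equally in both neuronal classes. Nhlh1 was most open in members, but its cut sites were used to choose them. Without injured replicate 3 the levels in members and mature-like cells were 14.8 and 3.51 ppm for Nhlh1, 7.16 and 15.3 for Gfy, and 9.30 and 9.27 for Uncx. Of the 32851 promoter windows of the same length in the table, 17.2% hold CAGATG, 0.904% hold the EBF site and 5.29% hold TAATTA.

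The values that chose the members are a description and were not tested. Their fold over the immature-neuron genes had a median of 5.29 and ran from 3.02 to 11.6, and over the mature-neuron genes the median was 2.91. Of the 155 members, 70 had a mature-neuron fold of 3 or more and 7 had one under 1, so the fold was 1 or more over both sets in 148. Cut sites were seen in all 8 immature-neuron genes in 24 members, in 7 genes in 43, in 6 in 49, in 5 in 31 and in 4 in 8. The 3 members nearest the threshold had folds of 3.02, 3.05 and 3.07, and the 3 cells nearest below it had 2.92, 2.89 and 2.85. Of the 291 cells with a fold of 3 or more, 234 had cut sites in at least 4 genes, and 79 of these had the higher fold over the mature-neuron genes.

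**Figure D1:**
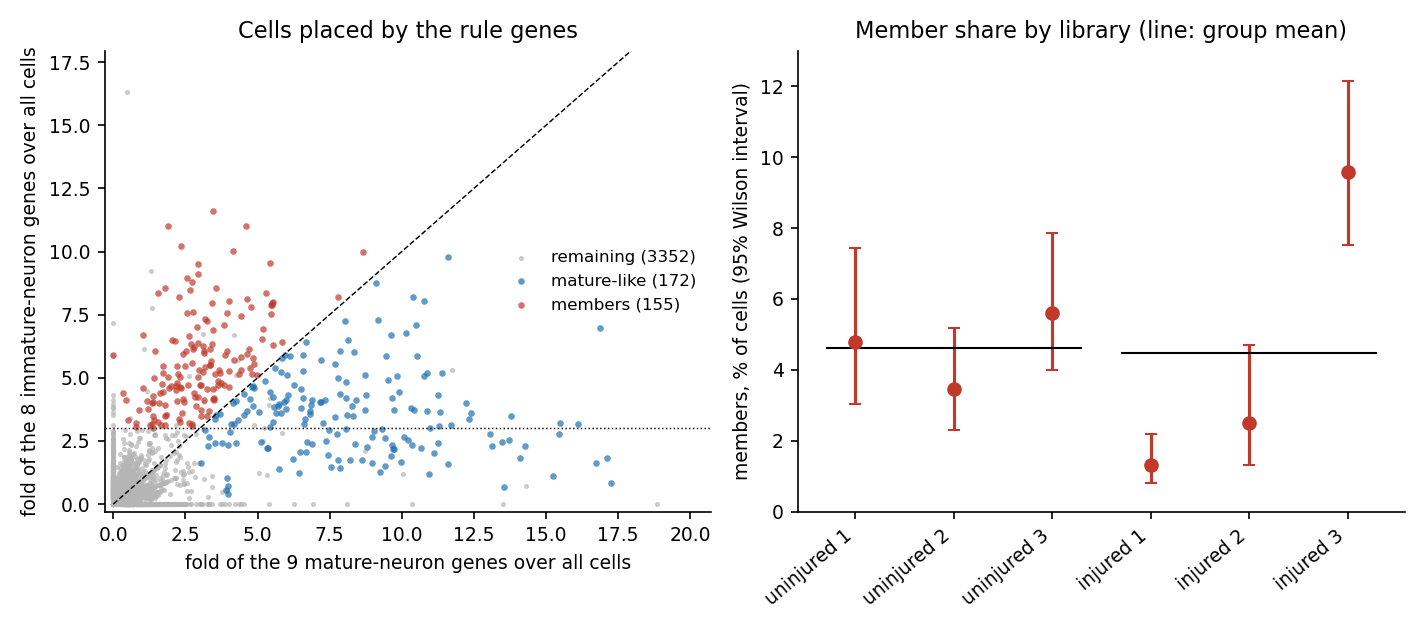
Left, each point is a cell, with its fold over the 9 mature-neuron genes (x) and over the 8 immature-neuron genes (y), the dotted line at the threshold of 3 and the dashed line at equal folds. Right, members as a percentage of cells in each library with 95% Wilson intervals. Injured replicate 3, at 9.58%, lies above the other 5 libraries.

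Nhlh1, a bHLH factor of neuronal precursors, stood in members at 57.0, 64.5 and 70.0 ppm in the uninjured libraries and at 58.5, 56.8 and 65.4 in the injured ones. In remaining cells it stood between 3.58 and 6.53 in each library. The 2 classes did not overlap in these libraries, and over pooled cells Nhlh1 was 12.1 times as open in members. Gap43, a growth cone protein, stood at 172, 187 and 145 in uninjured members and 169, 181 and 236 in injured ones. Its pooled level was 191 ppm in members, 111 in mature-like and 18.4 in remaining cells. The largest ratio to remaining cells among the 8 genes was that of Rd3 (16.3), a guanylate cyclase regulator known from photoreceptors. It was followed by Stmn2 (14.4), which binds tubulin, Calb2 (13.2), the calcium-binding protein calretinin, and Nhlh1 (12.1). The precursor factors Neurog1 (6.39), Neurod1 (5.95) and Insm1 (5.65) had the smallest ratios. In injured replicate 2, with 9 members, Neurog1 had no cut site in members, which allows up to 10.7 ppm (3 fragments with 2 cut sites each), so there the classes were not separated by this gene. Between the neuronal classes Rd3 and Stmn2 were close, at 1.13 and 1.09 times the pooled level of mature-like cells, and each class was the higher in 3 of 6 libraries, while Neurog1 and Nhlh1 stood at 3.48 and 3.11 times that level. Without injured replicate 3 these ratios were 0.995 for Rd3, 1.07 for Stmn2, 3.71 for Neurog1 and 4.197 for Nhlh1, so Rd3 lost its excess.

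Pooled over libraries, the mature-neuron genes were less open in members than in mature-like cells. Omp, the olfactory marker protein, stood at 22.6, 20.6 and 19.8 ppm in uninjured members and at 24.7, 19.5 and 31.1 in injured members. In mature-like cells it stood between 67.2 and 130 ppm, above the members of every library. Over pooled cells the ratio of members to mature-like cells was 0.193 for S100a5, 0.225 for Omp, 0.298 for Stoml3 and 0.341 for Gng13, an odour transduction G protein subunit. It was 0.708 for Cnga2, the olfactory cyclic nucleotide-gated channel. Without injured replicate 3 it ran from 0.159 for S100a5 to 0.614 for Cnga2. By library Cnga2 was higher in members in uninjured replicate 2 (32.0 against 30.1 ppm) and injured replicate 2 (44.4 against 32.6). Over pooled cells the receptor-transporting proteins Rtp1 and Rtp2 were 30.1 and 19.6 times as open in members as in remaining cells, while Stoml3 was 1.77 times as open. In uninjured replicate 1 Stoml3 was lower in members than in remaining cells (17.8 against 23.3 ppm).

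**Figure D2:**
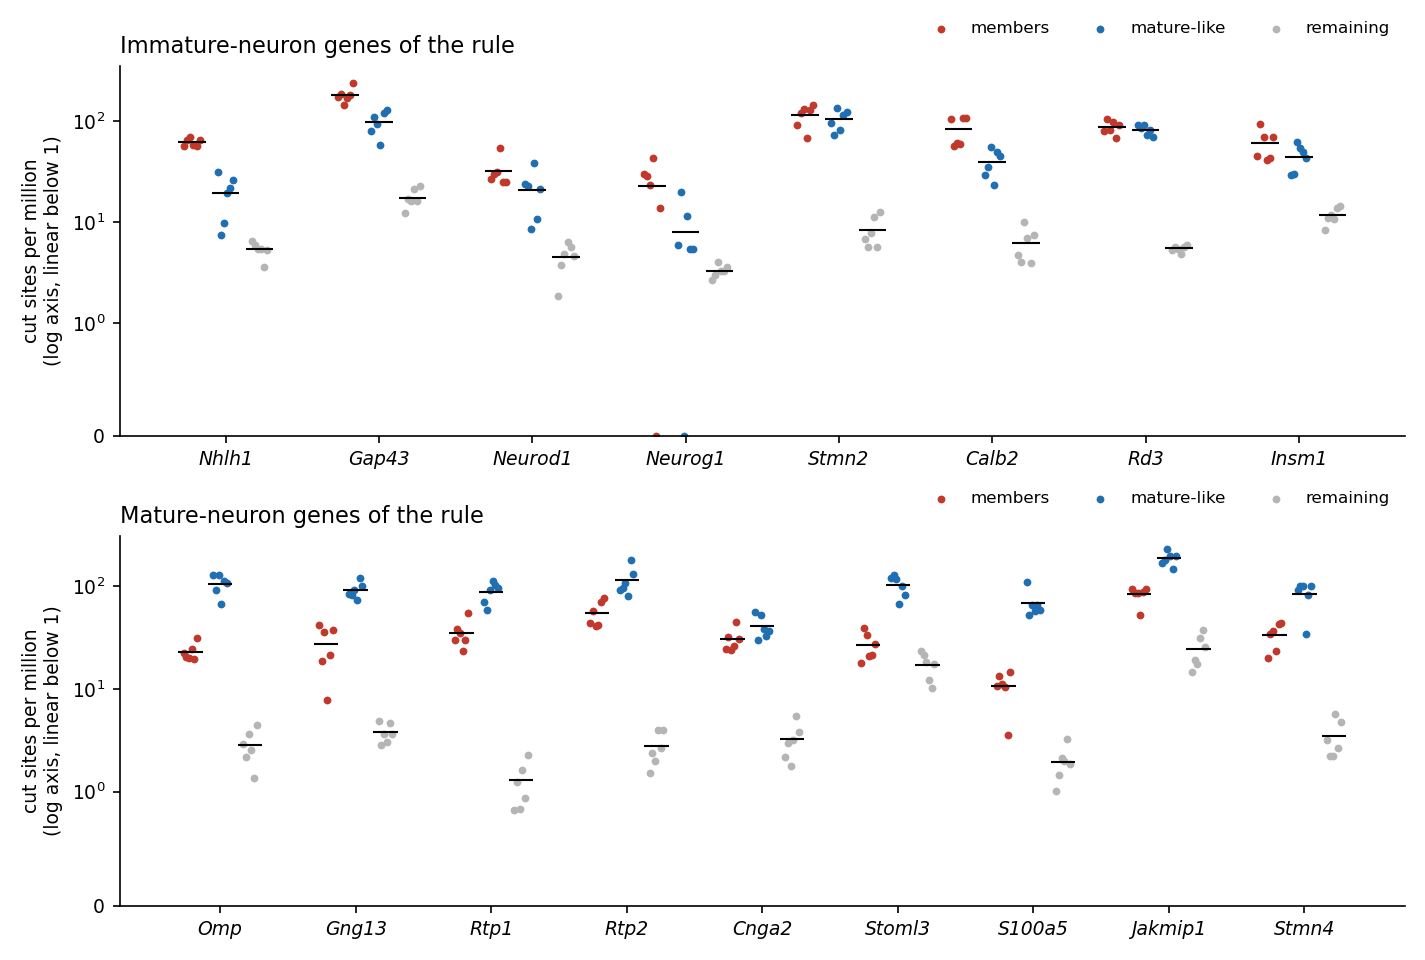
Level in ppm (log axis, linear below 1) over the genes of the rule, each point a library and each bar the mean of the 6 libraries. Pooled over libraries, the immature-neuron genes (top) are higher in members than in mature-like cells, by little for Stmn2 and for Rd3 (which is about equal without injured replicate 3), and the mature-neuron genes (bottom) are higher in mature-like cells, with members between them and the remaining cells.

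Within the members, 53 leaned to the precursor genes Neurog1, Neurod1, Insm1 and Nhlh1 and 102 to Gap43, Stmn2, Calb2 and Rd3, whichever fold was higher. In the precursor-leaning cells the fold over the 20-gene precursor list, which holds none of these genes, was 1.50, against 1.24 in the others. Single genes of that list went both ways. Cxcr4 (2.23 against 2.09) and Kit (1.95 against 1.67) were higher in precursor-leaning cells, and Sox11 (2.29 against 2.68) and Lhx2 (3.09 against 3.32) were lower. The transduction list stood at 1.54 against 2.02, and Dcx, a microtubule protein of young neurons, at 2.95 against 4.04. These are pooled values without a test. Injured replicate 3 held 44 of the 102 axon-leaning and 16 of the 53 precursor-leaning members, and no value without it is given. By library the precursor-leaning share was 33.3%, 31.8% and 45.2% in uninjured and 60.0%, 11.1% and 26.7% in injured mice, so the groups overlapped. The share in injured replicate 2 rests on 1 of 9 members.

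The members made up 4.79%, 3.46% and 5.62% of cells in the uninjured libraries and 1.33%, 2.51% and 9.58% in the injured ones. The injured libraries span the uninjured range on both sides. The means were 4.62% ± 1.09 and 4.47% ± 4.47 (SD, n = 3 each), and the difference of -0.148 points did not pass an exact two-sided permutation test (p = 1, where the smallest possible p is 0.1). Without injured replicate 3 the difference was -2.70 points. Members were 60.0%, 57.9% and 52.5% of all neuron-like cells (members plus mature-like) in uninjured and 53.6%, 50.0% and 39.0% in injured libraries (exact permutation p = 0.2). Adjusted over the 8 values compared between groups in this way, these p-values were 1 and 0.533. The proportion depends on depth. Thinned to 5000 fragments per cell in 1 random draw, the fraction of members among neuron-like cells was 0.25, 0.33 and 0.28 in uninjured libraries. In injured libraries it was 0.58, 0.25 and 0.26, and all 6 values rest on 39 members and 92 mature-like cells. In sorted cells a share cannot tell a gain of one class from a loss of another.

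The members were deeper than the other cells, with a median of 39703 fragments against 21356 in mature-like and 16234 in remaining cells. Within libraries the median was higher in members than in remaining cells in 6 of 6, by 19151 ± 11062 fragments (SD; exact sign-flip p = 0.031, the smallest possible). Against mature-like cells it was also higher in 6 of 6, by 14211 ± 6061 fragments (SD; exact sign-flip p = 0.031). Both neuronal rules ask for cut sites in 4 genes, which a deeper cell meets more easily and which remaining cells need not meet. The p-value against remaining cells is thus not free of the rule, and the part of this demand in the depth was not tested. With each cell thinned to 5000 fragments in 1 random draw, 39 cells met the member rule, 32 of them members. Enrichment of cut sites at gene starts was lower in members than in mature-like cells in 6 of 6 libraries, by 5.16 ± 1.91 (SD; exact sign-flip p = 0.031). Against remaining cells the sign followed the group. Members were lower by 3.77, 2.53 and 2.61 in the uninjured libraries and higher by 1.50, 3.35 and 2.32 in the injured ones, and the difference between groups of 5.36 had the smallest p that 3 against 3 allow (exact permutation p = 0.1). Over all 6 libraries the mean was -0.290 ± 3.03 (SD; exact sign-flip p = 0.8125). The depth excess over remaining cells also did not overlap between groups, at 28759, 33448 and 24024 fragments in uninjured and 7512.5, 8455 and 12709 in injured libraries (exact permutation p = 0.1). The median depth of members was 41761.5, 45944 and 46905 fragments in uninjured and 21560, 30499 and 34417 in injured libraries, without overlap. In remaining cells it was 13002.5, 12496.5 and 22881 in uninjured and 14047.5, 22044 and 21708 in injured libraries, with overlap. The part of depth or start enrichment in the comparisons of injury was not tested. Stretches covered by more than 2 fragments, a mark of doublets, called 2 of 155 members (1.29%), 3.49% of mature-like and 3.46% of remaining cells. The score behind this call, the excess of such stretches for the depth of a cell, had a lower median in members than in either other class in 6 of 6 libraries, so the percentages cannot be compared between classes. Against remaining cells the gap was -1.59, -1.53 and -0.588 in uninjured libraries. In injured libraries it was -0.532, -0.0146 and -0.00675 (exact permutation p = 0.1 between groups).

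The next comparison asks which genes outside the rule were more or less open in members than in remaining cells of the same library. All genes within 100 kb of a rule gene were left out, and summed cut sites were tested with edgeR's quasi-likelihood test at an adjusted p of 0.05. Of 17840 genes, 3222 were higher in members (18.1%) and 3700 were lower (20.7%), and the median over all genes was -0.05 on the log2 scale. Levels below are CPM, scaled by library and class, as mean ± SD of 6 libraries.

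Of the 20 precursor genes, 13 were higher and 3 lower in members, with a median log2 change of 0.74. The zinc finger factor gene Myt1 was higher by 2.98 ± 0.24 (SE; edgeR adjusted p = 1.13e-08), at 57.3 ± 13 CPM against 7.86 ± 3.0. Lhx2, a LIM homeodomain factor that olfactory neurons need, stood at 172, 148 and 151 CPM in uninjured and 168, 149 and 162 in injured members, and between 30.4 and 36.7 in remaining cells. The classes were far apart in all 6 libraries. Nhlh2 (2.22), St18 (1.98) and Sox11 (1.67) were also higher on the log2 scale. The 3 lower genes were the Notch ligand gene Dll1 (-1.23), the antiproliferative gene Btg2 (-0.82) and Eya2 (-0.62), a transcriptional cofactor.

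Of 19 immature-neuron genes tested, 18 were higher and 1, Marcksl1 (-0.81), was lower, with a median of 1.26. Dcx stood at 46.9, 65.2 and 44.7 CPM in uninjured and 36.2, 53.3 and 50.7 in injured members, and at no more than 11.0 in any library of remaining cells. Its change was 2.83 ± 0.22 (SE) on the log2 scale. The RNA-binding neuronal gene Elavl4 was higher by 3.01, the adhesion gene Ncam1 by 2.87 and the neuronal tubulin gene Tubb3 by 2.64.

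Of 20 genes for transcription factors of olfactory neurons, 15 were higher and 2 lower, with a median of 1.09. Pou2f3, among the 15, is also counted below as a microvillar gene. Ebf1 and Ebf2 had the largest changes of the list. Ebf1 stood at 739, 516 and 520 CPM in uninjured and 390, 659 and 550 in injured members, against 44.9 to 88.4 in remaining cells, without overlap. Its change was 3.11 ± 0.18 (SE; edgeR adjusted p = 9.13e-10), and those of Ebf2, Ebf3 and Ebf4 were 2.97, 2.89 and 2.05. Uncx (2.91), Fezf1 (2.48) and Emx2 (1.95) were also higher. Runx1, a factor also used in blood cells, was lower by 1.66 ± 0.19, and Zfhx3 was lower (-0.38).

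Axon guidance genes were higher in 19 of 22 cases and lower in 1, the adhesion gene Nrcam (-0.44). Robo2, a receptor for Slit proteins, stood at 427, 344 and 311 CPM in uninjured and 313, 347 and 365 in injured members, and between 39.7 and 114 in remaining cells. Sema7a, a membrane-anchored semaphorin, was higher by 2.66, the sorting adhesion gene Kirrel2 by 2.37, Slit1 by 2.05 and the semaphorin co-receptor gene Nrp2 by 1.54. The median of the list was 0.96.

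Of the 16 transduction and maturation genes, 14 were higher and 1 lower. Cnga4, a modulatory subunit of the olfactory channel, stood at 19.0, 17.6 and 26.1 CPM in uninjured and 28.4, 45.7 and 28.1 in injured members, against 1.01 to 2.46 in remaining cells. Slc17a6, a vesicular glutamate transporter, was higher by 3.89 and Gfy by 3.26. The transduction enzyme gene Adcy3 was higher by 1.76 and the G protein gene Gnal by 1.29. The chloride channel gene Ano2 did not pass the test (0.28, edgeR adjusted p = 0.165), and the lower gene was Nqo1 (-0.59), which marks the dorsal zone. The list's median was 1.22.

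Basal cell genes were lower in members in 9 of 10 cases, with a median of -2.03, and none was higher. Krt5, the keratin whose promoter drove the lineage label, stood at 7.60, 3.11 and 7.26 CPM in uninjured members and at 10.3, 0 and 2.77 in injured members, where the 0 allows up to 10.7 ppm. In remaining cells it stood between 50.3 and 87.4 CPM, above each value in members. Its change was -3.70 ± 0.26 (SE; edgeR adjusted p = 3.19e-09). Krt14 changed by -2.77, the adhesion gene Icam1 by -3.83 and the basal regulator gene Trp63 by -1.22. Col17a1, a hemidesmosome collagen, did not pass (-0.26, edgeR adjusted p = 0.297). Summed over the list, the fold over all cells was 0.349 ± 0.057 in members (SD, n = 6 libraries) and 1.12 ± 0.14 in remaining cells, and 0 of 155 members reached 1.

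Stress and injury genes were lower in 16 of 19 cases and higher in none, with a median of -1.29. Atf3, an early stress factor, stood at 117, 78.7 and 71.5 CPM in uninjured and 116, 57.2 and 81.5 in injured members, and between 282 and 415 in remaining cells. The classes did not overlap in either group. The AP-1 gene Fos changed by -1.48, the stress keratin genes Krt17 and Krt16 by -2.58 and -3.63, and the cytokine gene Il6 by -2.30. The summed fold was 0.473 ± 0.061 in members against 1.11 ± 0.23 in remaining cells.

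Markers of other cell types were called in both directions. The list medians were above 0 for glia (1.12), microvillar (0.88) and ciliated cells (0.57) and below 0 for sustentacular (-0.96) and gland cells (-0.99), and the glial median was above those of the precursor, transcription factor and guidance lists. Of 8 sustentacular genes, 2 were higher (Sult1d1 1.75, Sec14l3 0.99) and 3 lower, among them Cbr2 (-3.19), and the defining gene Cyp2g1 stood at 2.37 ± 1.4 CPM. Of 4 gland genes, the water channel gene Aqp5 (-2.12) and Sox9 (-1.08) were lower. Of 8 microvillar genes, Chat (2.42), Coch (1.52), Ascl3 (1.27) and Pou2f3 (0.74) were higher and Cftr (-0.53) lower. Of 6 ciliated-cell genes, Ccdc39 (1.53), Tekt1 (1.18), Foxj1 (0.77) and Dnah9 (0.37) were higher. Of 6 glial genes, S100b (1.76), Npy (1.196) and Frzb (1.05) were higher, and the defining gene Sox10 (7.01 ± 2.4 CPM) did not pass. The summed glial fold ran from 1.53 to 2.32 over the libraries of members and from 0.729 to 1.11 over remaining cells. Its part in the results was not tested.

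Of 8 immune genes, Ptprc (1.29) was higher and Cd74 (-1.84) and Spi1 (-0.87) were lower. The summed immune fold was 0.991 ± 0.17 in members and 1.03 ± 0.094 in remaining cells. Of 8 vessel and stroma genes, Pdgfrb (1.14) was higher and Pdgfra (-0.64) lower. Of 10 cell-cycle genes, only the replication clamp gene Pcna (-0.49) passed, and the proliferation gene Mki67 did not (0.34, edgeR adjusted p = 0.146).

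**Figure D3:**
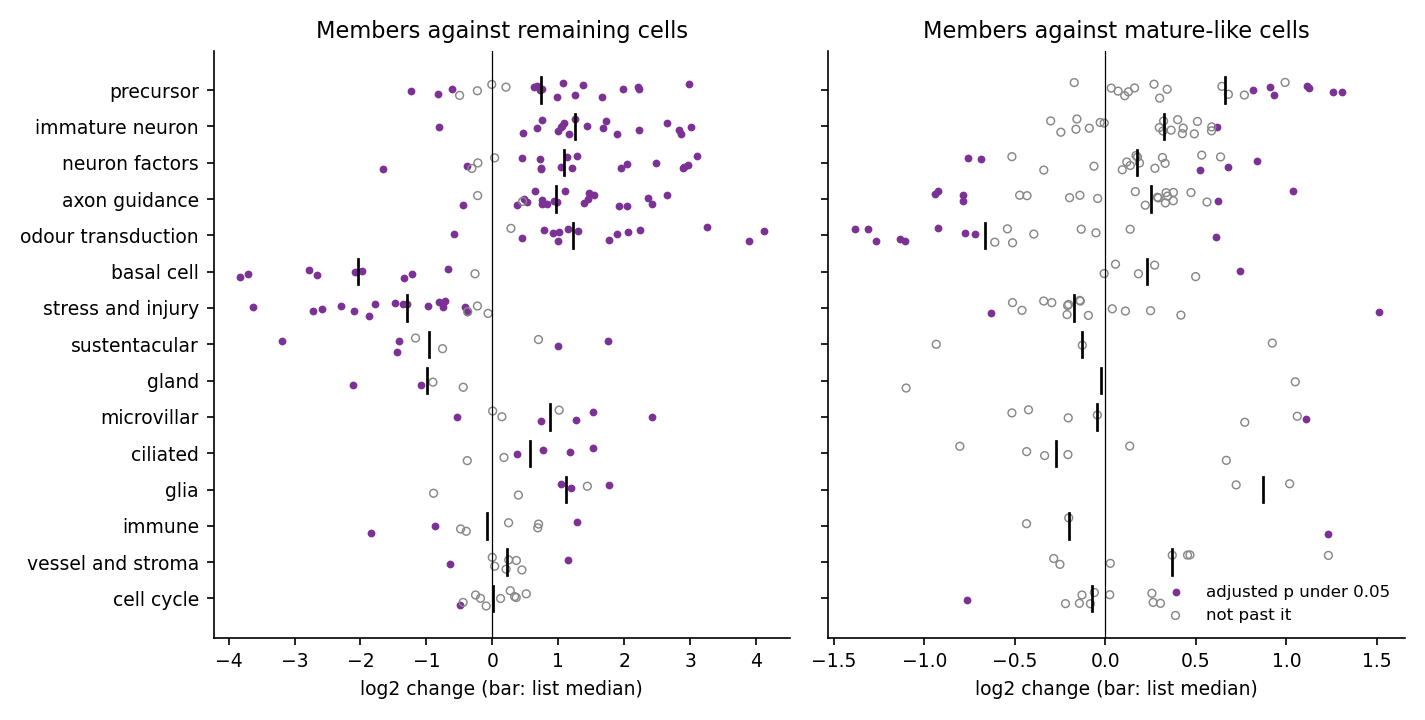
Log2 change of every tested gene of 15 lists in members against remaining cells (left) and against mature-like cells (right), filled where the adjusted p was under 0.05, with a bar at the list median. On the left the medians of the 5 neuronal, the glial, microvillar and ciliated lists lie above 0, and those of the basal, stress, sustentacular and gland lists below it. On the right the transduction list lies lowest among the neuronal lists, at -0.67.

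Over all genes tested, in the lists or not, those with the largest change that did not overlap between classes were led by S100z, a small calcium-binding protein gene. It stood at 13.6 ± 9.9 CPM in members and 0.505 ± 0.48 in remaining cells, 4.99 ± 0.71 (SE) higher on the log2 scale, with an edgeR adjusted p of 1.19e-05. It was followed by Gm20379 (4.30), Tex44 (4.18), Gpr152 (4.18), AI593442 (4.14), Cnga4 (4.12), the keratin gene Krt26 (3.93), Nnmt (3.92), Slc17a6 (3.89) and 5530401A14Rik (3.87). The windows of Gm20379, Tex44, Gpr152 and 5530401A14Rik overlap those of Msh3, Nmur1, Cabp4 and Asic2, whose cut sites cannot be told apart there. The genes most reduced were Krt33a (-6.15), Reg3g (-4.61), Sbk3 (-4.59), Fam71a (-4.45), Nobox (-4.38), Fgfbp1 (-4.00), Krt39 (-3.98), Nupr1 (-3.89), Icam1 (-3.83) and Urah (-3.79). Krt33a had 2 cut sites in all members against 1821 in remaining cells, so its fitted change depends on the prior count. Nobox had 5 cut sites in members, and Reg3g and Sbk3 had 6 each. The windows of Sbk3, Icam1 and Urah overlap those of Sbk2, Icam4 and Gm45785.

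Members and mature-like cells, both neuron-like, were compared in the same way, to show where the 2 classes differed outside the rule genes. Of 14528 genes tested, 594 were higher (4.09%) and 328 lower (2.26%) in members. The split depends on the scaling. By total cut sites instead of TMM factors, which moved the median of all genes by -0.124 on the log2 scale, 370 were higher and 614 lower. The counts also rested on single libraries. Leaving out uninjured replicate 1 gave 273 higher genes and 187 lower ones, leaving out uninjured replicate 2 gave 344 and 193, uninjured replicate 3 gave 128 and 119, and injured replicate 3 gave 490 and 202.

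Of 20 precursor genes 7 were higher in members than in mature-like cells and none was lower, with a median of 0.66. Eya2 stood at 168, 178 and 242 CPM in uninjured and 298, 146 and 132 in injured members, above the 46.2 to 126 of mature-like cells in every library. Its change was 1.26 ± 0.17 (SE; edgeR adjusted p = 0.000254). The others were the IGF-binding gene Igfbpl1 (1.31), the RNA-binding gene Mex3a (1.12), St18 (1.11), the chemokine receptor gene Cxcr4 (0.93), the receptor kinase gene Kit (0.91) and Tex15 (0.82). Sox11 (0.64) did not pass, with an edgeR adjusted p of 0.0532. By total cut sites 4 of the 20 passed, and without uninjured replicate 3 only 1 did.

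Transduction genes went the other way, with 8 of 16 lower in members, 1 higher and a median of -0.67. Gnal stood at 154, 119 and 149 CPM in uninjured and 93.1, 174 and 159 in injured members, and between 222 and 393 in mature-like cells, without overlap. Its change was -1.11 ± 0.14 (SE; edgeR adjusted p = 0.0001). Ric8b, which assists that G protein, changed by -1.39, the secreted-domain gene Umodl1 by -1.31, the exchanger gene Slc24a4 by -1.27, Ano2 by -1.14, Adcy3 by -0.92, and the phosphodiesterase genes Pde4a and Pde1c by -0.78 and -0.72. Ncam2, an axonal adhesion gene, was higher (0.61), and Slc17a6 did not pass (-0.05, edgeR adjusted p = 0.906). By total cut sites 10 of the 16 were lower, and without uninjured replicate 3 still 8, of 15 tested.

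The immature-neuron genes mostly did not separate the 2 neuronal classes, and only Dpysl5 (0.62), a collapsin-response gene, passed among 19. Among transcription factor genes Runx1 (0.84), Tshz1 (0.68) and Zfhx3 (0.52) were higher, and Fezf1 (-0.76) and Ebf4 (-0.69) lower. Among guidance genes Chl1 (1.03) and Nrp2 (0.62) were higher, and Epha5 (-0.94), Kirrel2 (-0.92), Sema7a (-0.79) and the protocadherin gene Pcdh10 (-0.79) lower. In the other lists Krt17 (1.51), Ptprc (1.23), Chat (1.11) and Trp63 (0.74) were higher, and Pcna (-0.77) and Fos (-0.63) lower. Without uninjured replicate 3 none of the genes in these other lists and no immature-neuron gene passed, 1 transcription factor gene was higher and 1 lower, and 2 guidance genes were lower and none higher. Dpysl5 was also not called by total cut sites or without injured replicate 3, and DESeq2 called 4 immature-neuron genes. Outside the lists the most increased were Tbx3 (2.37), Vegfc (2.14), Gm3045 (2.06), Slc30a2 (2.03) and Hspa12b (1.99). The most reduced were Gm29776 (-2.72), Gm10842 (-2.49), Nap1l5 (-2.23), Mustn1 (-2.06) and Plac8 (-1.87). The windows of Hspa12b, Nap1l5 and Mustn1 overlap those of Gm11037, Herc3 and Tmem110.

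The odorant receptor genes, of which a mature neuron uses a single one, were summed over 1135 genes. They held 938 ± 259 ppm in members, 534 ± 259 in mature-like and 749 ± 344 in remaining cells (SD, n = 6). Members were above mature-like cells in 5 of 6 libraries (exact sign-flip p = 0.09375) and above remaining cells in 3 of 6 (p = 0.3125, exact). Neither difference passed the test. The direction against remaining cells followed the group, with members above in all 3 uninjured libraries (1283, 984 and 945 ppm against 479, 704 and 449) and below in all 3 injured ones (758, 1110 and 548 against 895, 1369 and 598). The difference between groups was -1.22 on the log2 scale (exact permutation p = 0.1, the smallest possible). Of the 1135 receptor genes, only 92 were tested singly against remaining cells. Of these, 17 were higher and 2 lower, where 18.1% of all genes were higher and 20.7% lower. The higher share is thus near the background and the lower share below it. The median log2 change of the 92 was 0.65.

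Injury was then compared within the members. Of 15712 genes tested with edgeR, none passed in either direction (0% higher and 0% lower) at 24 h, with 263 higher and 234 lower at an unadjusted p under 0.05, and DESeq2 also called none. In simulated data of this size the test recovered 88% of genes changed by 2 on the log2 scale and 25.5% of those changed by 1. Atf3 stood at 114, 77.1 and 69.2 CPM before and 115, 57.9 and 79.0 after injury, and the groups overlapped (-0.03 ± 0.27, SE). The changes of Dcx (-0.13 ± 0.27) and Ebf1 (-0.13 ± 0.22) were also smaller than their errors. Summed over the stress list, members held 886, 884 and 890 ppm in uninjured and 1075, 714 and 908 in injured libraries (exact permutation p = 0.7). Summed over the basal list they held 259, 245 and 277 against 260, 174 and 207 (exact permutation p = 0.3). Remaining cells held 2795, 1992 and 2351 ppm over the stress list in uninjured and 1825, 1533 and 2028 in injured libraries. Over the basal list they held 909, 750 and 806 against 702, 626 and 760 (exact permutation p = 0.2 for each list). Neither sum was thus higher on average after injury in remaining cells.

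Whether members and remaining cells changed differently after injury was tested as the interaction of class and group. Of 18821 genes, 21 had a more negative change in members (0.112%) and none a more positive one (0%). DESeq2, which gave an adjusted p for 16996 genes, called 105 more negative and 2 more positive. At an unadjusted p under 0.05, 1179 were more negative and 498 more positive by edgeR, and 806 and 1015 when scaled by total cut sites. The 21 genes had a higher mean after injury in the remaining cells, and the mean of members was lower in 20 of them. Caln1, a calcium-binding neuronal gene, stood in remaining cells at 19.4, 28.6 and 22.8 ppm before and 61.2, 76.8 and 53.0 after injury. In members it stood at 138, 126 and 101 before and 93.6, 107 and 69.0 after. The remaining cells did not overlap between groups, the members did, and the difference of the changes was -2.01 ± 0.28 (SE; edgeR adjusted p = 0.00248). Adam12, a membrane protease gene, went from 27.2 ± 1.6 to 65.1 ± 0.74 in remaining cells and from 120 ± 21 to 83.5 ± 4.8 in members. Gria1, a glutamate receptor gene, went from 15.4 ± 3.6 to 43.1 ± 19 and from 57.8 ± 11 to 32.6 ± 5.6 (SD, n = 3 each). In members alone none of these genes passed the test.

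The 21 genes were long, with a median of 238 kb against 21.8 kb over all genes tested. Beside this, the fold of remaining cells over the 8 immature-neuron genes was 0.382, 0.440 and 0.515 in uninjured and 0.549, 0.454 and 0.600 in injured libraries. Over the 9 mature-neuron genes it was 0.445, 0.453 and 0.426 against 0.536, 0.558 and 0.554. The mature-neuron values did not overlap between groups and were higher after injury. At some of the 21 genes the mean of injured remaining cells was above that of injured members, as for Kcnk5 (89.4 against 19.7 ppm). At others it was below, as for Kcnh8 (55.3 against 197.6 ppm). Start enrichment of remaining cells was lower after injury without overlap, at 13.21, 11.82 and 13.86 against 17.99, 15.94 and 17.28. The part of the neuronal folds or of start enrichment in the 21 genes was not tested. The count was 9 without uninjured replicate 1, 9 without injured replicate 2 and 9 when scaled by total cut sites. It was 36, 48 and 37 without uninjured replicate 2, uninjured replicate 3 and injured replicate 3.

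**Figure D4:**
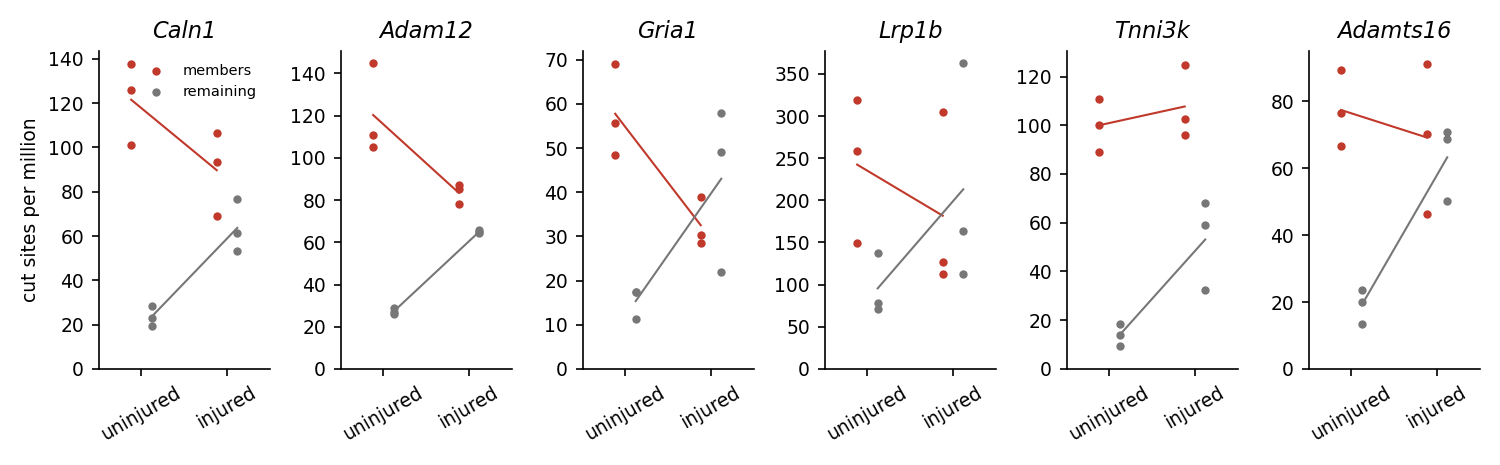
Level in ppm over 6 genes with the smallest interaction p, in members (red) and remaining cells (grey), each point a library and each line joining the means of the uninjured and injured groups. The mean of remaining cells is higher after injury in each panel, and the mean of members is lower in all but Tnni3k.

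Open regions were tested in members against remaining cells, in order to place these differences on the genome. Merged 500 bp tiles with at least 5 times the cut sites of the median tile were used, leaving out those within 100 kb of a rule gene. Of 76268 regions that passed the filter on low counts, 15677 were higher in members (20.6%) and 25810 lower (33.8%), with a median of -0.45. Without uninjured replicate 1, 44596 of 98654 were lower, with a median of -1.08. The higher regions lay away from promoters, with 5.63% within 1 kb of a start, against 13.2% of the lower and 17.7% of the regions not called. Of the higher regions 51.5% lay in introns and 41.7% between genes, near the 48.6% and 40.5% of all regions tested.

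Regions inside the windows of the listed genes were called in both directions. Of 23 regions tested in Ebf1, 22 were higher and 0 lower, of 18 in Ebf2 17 were higher, of 14 in Ebf3 13, and of 18 in Ncam1 12. All 9 regions tested in Elavl4 and all 4 in Lhx2 were higher. Over the lists, 94 of 165 regions in immature-neuron genes were higher and 16 lower, and 47 of 93 in transduction genes were higher and 14 lower. In transcription factor genes 87 of 174 were higher and 33 lower, in guidance genes 101 of 217 were higher and 39 lower, and in precursor genes 19 of 53 were higher and 14 lower. In basal genes 1 of 45 was higher and 30 were lower, among them the 1 of Krt5. In stress genes 0 of 25 were higher and 23 lower, among them all 5 regions of Atf3. In microvillar genes 11 of 26 were higher and 4 lower, in immune genes 4 of 10 and 3, and in sustentacular genes 3 of 10 and 5. The 6 regions of Pou2f3, of which 3 were higher and 1 lower, are counted for both transcription factor and microvillar genes. For vessel and stroma genes 6 of 22 regions were higher and 4 lower, for ciliated-cell genes 3 of 15 and 3. No region was higher in glial (0 of 5), gland (0 of 3) or cell-cycle genes (0 of 11).

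Higher region 1, printed above, spans chr3:151112001-151114000, and the nearest coding start, of Adgrl4, lies 324887 bp away. It held 10.2, 20.7 and 13.7 CPM in uninjured and 2.19, 24.0 and 7.62 in injured members, against at most 0.244 in remaining cells. Over pooled cells that is 164 cut sites in members and 8 in remaining cells, or 240.5 times the rate. Remaining cells held cut sites there only in injured replicate 3 (0.244 CPM) and uninjured replicate 2 (0.0733 CPM), so this ratio leans on injured replicate 3. Higher region 2 (chr6:96376501-96377500) held 132 cut sites in members and 9 in remaining cells, 172 times the rate, and higher region 3 (chr6:96839501-96840500) held 214 and 22, 114 times the rate. Absence of overlap between the classes was a condition for naming a region, so it is not a result here.

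Lower region 1 (chr8:32218001-32220500), in an intron of the growth factor gene Nrg1, held 0 cut sites in members and 3258 in remaining cells. Against a floor of 3 fragments (6 cut sites) over all members, its rate was at least 46.3-fold lower. Lower region 2 (chr1:30183001-30185500, between genes) held 0 and 2452, at least 34.8-fold lower. Lower region 3 (chr8:79575501-79577000, between genes) held 0 and 1762, at least 25.03-fold lower. These limits cover counting error only.

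Short motifs were searched on both strands of the strongest 500 bp tile of each region. The EBF site, a palindrome bound by the Ebf proteins, occurred in 7.44% of higher, 1.27% of lower and 2.57% of regions not called. TAATTA occurred in 26.2%, 8.87% and 11.2% in the same order. Both were most frequent where members were more open. TGANTCA, the AP-1 site, went the other way, at 14.6% of higher, 32.8% of lower and 17.1% of regions not called. The core of the CTCF site occurred in 1.05% of higher and 1.83% of lower regions and in 7.33% of those not called. The E-boxes CAGATG (37.4%, 29.5% and 31.1%) and CAGCTG (31.5%, 26.7% and 28.2%) share the outer letters CANNTG. The KLF and SP site GGGCGG occurred in 14.8%, 25.3% and 29.0%. GC content was 48.1% in higher, 50.3% in lower and 51.2% in other regions, and its part in these shares was not tested. Restricted to regions over 1 kb from a start, the EBF shares were 7.64%, 1.24% and 2.63%, the TAATTA shares 27.5%, 9.75% and 12.8%, and the AP-1 shares 15.1%, 36.2% and 19.4%. These are shares of regions chosen by the test, given as a description.

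**Figure D5:**
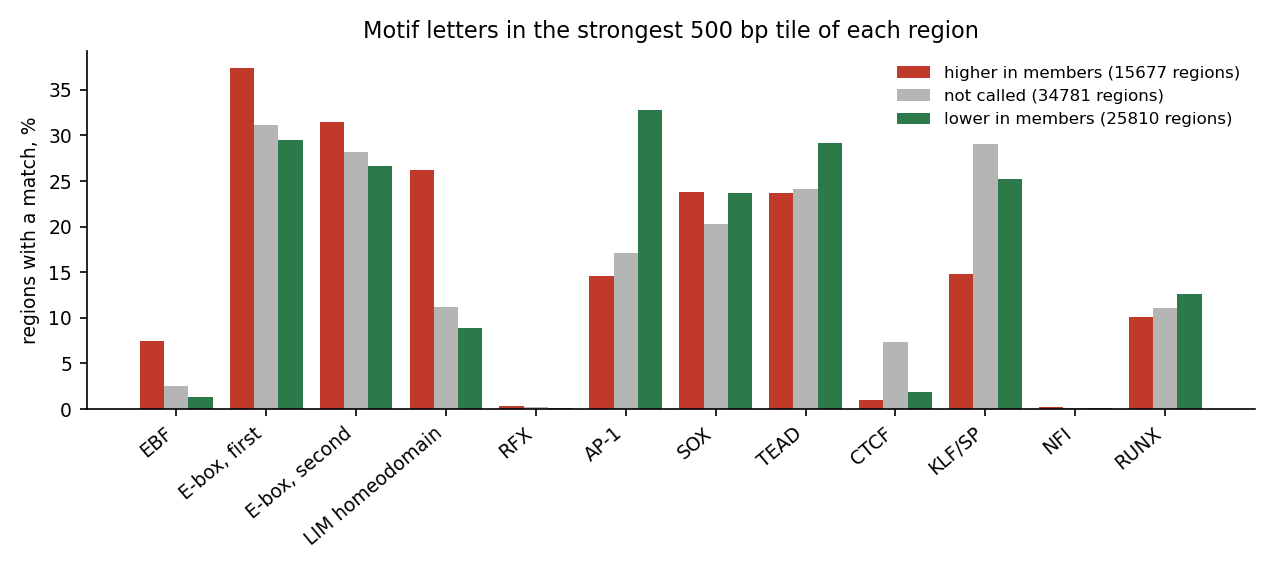
Percentage of regions with a match to each of 12 motifs, for regions higher in members, not called and lower in members. EBF and LIM homeodomain letters are most frequent in the higher regions, and AP-1 letters in the lower ones.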

How the data were processed

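Chromatin accessibility was measured in 6 single-cell ATAC-seq libraries. The authors deposited fragment files that give, per the file headers and rows, each deduplicated fragment with its barcode and its count of read pairs. Cell Ranger 2.0.0 and mm10 are named in the submitters' processing notes, without a role, and sources used here do not state the settings of the alignment. The deposited peak matrices were not used here. Each fragment gave 2 cut sites, one per end, whatever its number of read pairs. Duplicates were removed upstream, so depth was counted in fragments.

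Gene windows came from GENCODE M21 (21938 protein-coding genes, GRCm38). The 86 genes within 100 kb of a rule gene were left out of comparisons between classes. Cut sites were summed per library and class, since cells are not replicates. They were tested with edgeR 4.0.16 (quasi-likelihood, TMM, filterByExpr, robust) in R 4.3.3, with the library as a term between classes and Benjamini-Hochberg adjustment. Single values were compared by exact permutation or sign-flip tests. The labels call the replicates biological. The fits were tested on simulated counts. In the comparison of members with remaining cells, 74.5% of genes changed by 1 and 94.5% of those changed by 2 on the log2 scale were recovered over 17921 genes.

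Named are genes of fixed lists, the 10 genes with the largest change in each direction against remaining cells, the 5 against mature-like cells, and 3 regions in each direction. For genes and regions alike this required an adjusted p under 0.05, a mean of at least 5 CPM and no overlap between classes. Regions on chromosome 18 were not named, and 2 genes of the lists are counted in them but not reported here. The members and the lists were chosen with earlier results of these data known. Same-numbered replicates were compared by the correlation of their deviations from the group mean over 11244 genes, which was -0.07, 0.00 and 0.02, so the numbers were not treated as pairs. Alternatives covered DESeq2 1.42.0, scaling, filters, the member rule, doublets and leaving out each library. Leaving injured replicate 3 out of pooled levels was chosen after seeing the data.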

Additional observations from a re-analysis of the deposited data

Results flagged for a closer look

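The change after injury differed between members and remaining cells at 21 genes by the interaction test of edgeR, each more negative in members. On the log2 scale the difference was -2.81 for Tmem74, -2.78 for Htr4, -2.48 for Gria1, -2.22 for Npsr1, -2.05 for Cnga3, -2.01 for Caln1 and -1.97 for Adamts16. It was -1.93 for Kcnk5, -1.90 for Adam12, -1.87 for Tnni3k, -1.84 for Kcnk10, -1.79 for Galnt9, -1.79 for Sgcd and -1.66 for Lrp1b. It was -1.54 for Add2, -1.45 for Kcnh8, -1.43 for Nxpe4, -1.41 for Dpp6, -1.30 for Tnr, -1.28 for Rtn1 and -1.15 for Cntnap2. The groups of 3 libraries are too small for a test of single outlying libraries.

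In 2 other measures the difference between members and remaining cells had one sign in every uninjured library and the opposite sign in every injured library. The difference in enrichment at gene starts was 5.36 higher after injury, and the log2 ratio of the odorant receptor sum changed by -1.22. Each had an exact permutation p of 0.1, the smallest that 3 against 3 libraries can give. The adjusted p of each was 0.2 over the 10 differences compared in this way. Neither is a change in members alone. Start enrichment of remaining cells was 17.99, 15.94 and 17.28 in uninjured and 13.21, 11.82 and 13.86 in injured libraries. In members it was 14.21, 13.415 and 14.67 in uninjured and 14.71, 15.17 and 16.17 in injured libraries.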

How the results depend on the processing

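The difference in member share between groups changed sign with the rule. It was -0.582 points with cut sites in 5 or more genes, -0.890 with a higher minimum of fragments per cell, 0.498 points at a fold of 2, 0.312 at a fold of 4, 0.0811 with cut sites in 3 or more genes and 0.554 with cells thinned to 5000 fragments in 1 random draw, where 39 cells were members. Leaving out 1 library each gave -2.70 to 1.43 points. A block for the replicate number cannot change the difference of -0.148 points in this balanced design, and the exact sign-flip test over same-numbered pairs gave p = 1. Without 1 library the depth difference to remaining cells was 16292 to 21479 fragments and the start enrichment difference to mature-like cells was -5.56 to -4.48, where 5 libraries cannot give a p below 0.0625.

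Against mature-like cells, 370 genes were higher and 614 lower by total cut sites, and 513 were lower with no filter on low counts. Leaving out 1 library each gave 128 to 621 higher and 119 to 418 lower. Between injured and uninjured members 1 gene was higher with no filter, and leaving out 1 library gave 0 to 1 higher and 0 to 1 lower. The replicate block gave 0 and 0.

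For the interaction, DESeq2 called 2 more positive and 105 more negative genes, no filter 3 and 78, total cut sites 9 more negative and the replicate block 61. Leaving out 1 library gave 0 to 4 and 9 to 48. Total cut sites moved the median by 0.13 for the interaction and 0.165 for regions. Of 264778 regions tested with no filter, 23264 were higher and 73904 lower in members, and lower regions numbered 24017 to 44596 without 1 library, 44596 being without uninjured replicate 1.

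Of 148 named gene values past the threshold, none changed direction. Under each alternative that tested the gene, 97 kept their call. These were 75 of 83 against remaining cells, 16 of 44 against mature-like cells and 6 of 21 for the interaction. Some alternatives did not test every gene. Among values not past the threshold, Slc17a6 against mature-like cells changed sign at a fold of 4 (0.020), and without 1 library it was -0.14 to 0.043. After injury Atf3 was 0.19 at a fold of 4 and -0.27 to 0.21 without 1 library, Dcx -0.25 to 0.053 and Ebf1 -0.31 to 0.064. The cause of these changes was not tested. In simulated counts at the depth of these libraries 7% of interactions of 1 on the log2 scale and 71.5% of those of 2 were recovered over 18906 genes.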
